A study of Homo sapiens with 16 samples.

Results

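Lysosomal genes were followed through RNA sequencing of 2 human lung cancer cell lines, as 42 members: the transcription factors TFEB and TFE3, luminal hydrolases, the proteins that help them, proteins of the lysosomal membrane, subunits of the proton pump and the autophagy receptor SQSTM1. Members were chosen by symbol, and all 42 were found once each among the 18227 genes of the deposited tables. The lines were A549 and H2023, both established lines of non-small cell lung cancer. Each line was compared as wild type and as cells labelled ZC3H12A knockout. ZC3H12A encodes Regnase-1, an RNase best known for cutting mRNAs of inflammatory genes. Harvest came after 3 days of normal culture or 7 days of a culture meant to enrich stem-like cells, called Onco culture after the sample titles, so culture type and time change together. Lines, genotypes and cultures gave 8 groups of 2 libraries: wild-type and knockout-labelled A549 in each culture, and wild-type and knockout-labelled H2023 in each culture. The knockout libraries of a line all carry the name of 1 clone (g2-3 in A549, g2-1 in H2023), so what the edit did and what else sets that clone apart cannot be told apart. The labels do not say whether the 2 libraries of a group came from separate cultures, and the p-values then measure only the spread between these libraries, which may be technical.

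Lysosomes are acidic organelles in which proteins, glycans, lipids and nucleic acids are broken down. A vacuolar proton pump keeps their lumen acidic, heavily glycosylated membrane proteins line them, and enzymes reach them mostly from the Golgi through sorting receptors. TFEB and TFE3 are related factors that bind short E-box elements near the starts of many lysosomal genes. Both are held in the cytoplasm when the kinase mTORC1 is active on the lysosome, so their activity depends on where the protein is as well as on their mRNA. Tumour cells are known to draw on lysosomes and autophagy for nutrients, and secreted cathepsins are known to digest matrix.

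The mRNA of the targeted gene was higher in libraries labelled knockout than in wild type in 3 of the 4 comparisons. The samples are therefore called libraries labelled knockout throughout. ZC3H12A (chr1:37474552-37484379) was at 16.9 and 19.9 TPM (a level scaled for gene length and library size) in A549 normal libraries labelled knockout, against 30.7 and 34.9 in wild type. In Onco A549 the knockout-labelled pair was at 60.2 and 55.6, against 48.5 and 49.2. In H2023 the knockout-labelled pairs were the higher ones, at 41.5 and 41.5 against 26.8 and 29.9 in normal culture and at 94.6 and 69.2 against 32.5 and 26.4 in Onco culture. The log2 fold changes were -0.80 and 0.24 in A549 normal and Onco culture (limma adjusted p = 0.00387 and 0.304). In H2023 they were 0.54 and 1.43 (limma adjusted p = 0.0835 and 0.00045). The authors' deposited tables called all 4, in the same directions. An mRNA level does not measure the protein and does not by itself show whether a gene was edited. Replicates correlated at 0.977 to 0.9902 across genes. The share of TPM from mitochondrially encoded genes ranged between 10.3% and 18.7% in normal and between 19.5% and 25.6% in Onco libraries. The epithelial keratins KRT8 and KRT18 were at 765 and 666 TPM or more in every library, and EPCAM ranged from 0.37 to 51.0 TPM. The summed level of the 5 epithelial markers, mostly KRT8 and KRT18, moved with the knockout label in 3 of the 4 comparisons. It moved with culture in all 4 pairs of line and genotype (lower in Onco culture except in A549 labelled knockout). Other markers could go the other way. In wild-type A549, EPCAM, KRT19 and CDH1 were higher in Onco culture (EPCAM 9.4 and 7.94 against 1.24 and 1.98 TPM). In H2023 normal culture, EPCAM and KRT19 were lower in libraries labelled knockout (KRT19 126 and 130 against 374 and 258 TPM). The part of these markers in the members' results was not tested. In H2023 normal culture the sum was 7299 and 5887 TPM in wild type against 10677 and 9816 in the libraries labelled knockout. In Onco H2023 the sum was 3446 and 3420 against 6553 and 7087. Of 6 macrophage and leukocyte markers only CD14 was among the genes tested, at 0.35 to 47.6 TPM.

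The promoters of several members hold the element that TFEB and TFE3 bind, and they are shown because these genes form the set the factors are known for. RefSeq promoters (GRCh38.p14, from 250 bases before to 50 after an annotated start, of which a gene can have several) were matched for 32 of the 42 members. The others were CTSB, LAMP2, HEXA, MANBA, NAGLU, PSAP, SGSH, ASAH1, ARSA and ATP6V1H. The E-box CACGTG was found in 10 of the 32 (31.25%) and in 8.775% of 27305 genes with a promoter. The longer core TCACGTGA, which contains the E-box, was found in 6 of the 32 (18.75%) and in 1.176% of all genes. A gene counted if any of its promoters held the motif. Per promoter, the E-box was in 20.408% of the members' 49 and in 7.256% of all 35116, and the core in 12.245% and 0.98%. Both motifs read the same on either strand. The 6 windows of 30 bases with the core in capitals were as follows, each 5′ to 3′ on the strand of its gene.
GAA: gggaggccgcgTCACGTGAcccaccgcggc
GALNS: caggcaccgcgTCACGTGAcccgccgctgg
CTSA: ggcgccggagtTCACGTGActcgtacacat
LAMP1: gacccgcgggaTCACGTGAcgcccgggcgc
MCOLN1: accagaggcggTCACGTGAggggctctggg
ATP6V0D1: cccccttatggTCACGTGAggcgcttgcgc

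The GAA window lies at chr17:80101493-80101522 on the plus strand, with its core starting at position -77 from the annotated start of that promoter. A second copy in GAA starts at -32. The GALNS window is chr16:88857104-88857133 on the minus strand, and that of ATP6V0D1 is chr16:67481199-67481228, also minus. CTSA has its window at chr20:45891298-45891327, LAMP1 at chr13:113297199-113297228 and MCOLN1 at chr19:7522571-7522600, all on the plus strand. LAMP1 and MCOLN1 each hold a second core, at -2 and -15. The E-box without the longer core was found in 4 further members, shown with the E-box in capitals.
CTSD: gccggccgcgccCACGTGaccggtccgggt
NEU1: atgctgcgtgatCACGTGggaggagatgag
CD63: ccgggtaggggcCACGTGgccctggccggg
ARSB: taattcaataagCACGTGactaaaggattt

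These lie at chr11:1763957-1763986 for CTSD, chr6:31862930-31862959 for NEU1, chr12:55729172-55729201 for CD63 and chr5:78986101-78986130 for ARSB, all on the minus strand. A match describes the letters in the window and nothing about binding. Genes with the core did not share 1 pattern in the data below. GAA rose in libraries labelled knockout of A549 normal culture and GALNS rose in both A549 cultures. CTSA, LAMP1, MCOLN1 and ATP6V0D1 did not pass the limma test in any of the 4 knockout comparisons. The authors' deposited table called CTSA higher in A549 normal culture (0.55).

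Levels of the members spanned a wide range, from 4.12 TPM for IDUA to 2754 TPM for CTSD, and every member was above 4 TPM in all 16 libraries. CTSD, the aspartic protease cathepsin D, and SQSTM1, a receptor that ties ubiquitinated cargo to autophagosomes, had the highest medians over the 16 libraries, 741 and 870 TPM. PSAP, the precursor of the saposins that present lipids to hydrolases, followed at 656 and the tetraspanin CD63 at 582. At the other end stood TFEB with a median of 7.21, ARSB with 10.4, MANBA with 11.9 and FUCA1 with 12.6 TPM. The map of levels by library shows culture, line and genotype all moving the members, in directions that differ from gene to gene.

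**Figure D1:**
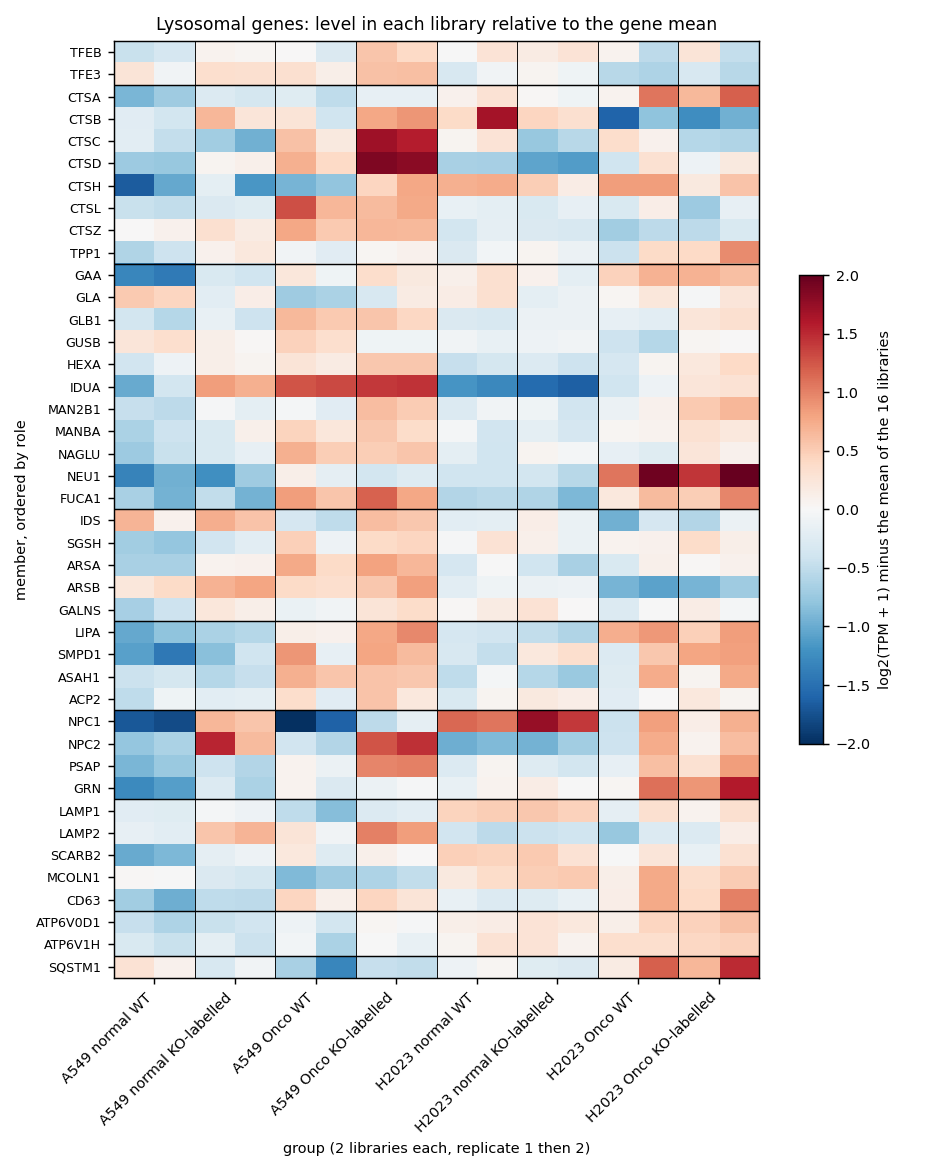
Each row is 1 of the 42 members, ordered by role, and each column 1 of the 16 libraries; colour gives log2(TPM + 1) minus that gene's mean over the 16 libraries, clipped at -2 and 2. NPC1 is low in the 4 wild-type A549 libraries, CTSC and CTSD are high in the Onco A549 libraries labelled knockout, and NEU1 is high in the 4 Onco H2023 libraries.

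Summed over the 42 members, the 2 wild-type A549 libraries in normal culture gave 0.456% and 0.436% of all TPM and those labelled knockout 0.578% and 0.549%. In Onco A549 the sums were 0.716% and 0.564% in wild type and 1.02% and 1.01% in the libraries labelled knockout. In each A549 culture the knockout-labelled pair lay above the wild-type pair. In H2023 the order was different: 0.556% and 0.657% in wild type against 0.548% and 0.523% in normal culture, and 0.56% and 0.904% against 0.704% and 1.01% in Onco culture, where the groups overlapped. A few abundant genes carry these sums, and in bulk RNA fewer cells of a kind and less RNA per cell cannot be told apart.

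The 2 transcription factors did not pass the test in any knockout comparison. TFEB was at 4.81 and 5.27 TPM in wild-type A549 in normal culture and at 7.29 and 7.13 in the libraries labelled knockout. In Onco A549 it was at 6.95 and 5.48 against 10.7 and 9.42. The A549 knockout-labelled libraries were thus above the wild-type ones in both cultures, by 0.44 ± 0.25 and 0.62 ± 0.25 on the log2 scale (difference ± standard error), with limma adjusted p of 0.245 and 0.101. In H2023 TFEB was at 6.92 and 8.61 in wild type and 7.88 and 8.55 in the libraries labelled knockout in normal culture, and at 7.34 and 4.55 against 8.47 and 4.7 in Onco culture. These H2023 groups overlapped. TFE3 was at 56.4 and 44.6 TPM in wild-type A549 in normal culture, 60.0 and 59.2 in the libraries labelled knockout, and 59.0 and 51.2 against 71.4 and 72.0 in Onco culture. Its A549 differences were 0.24 ± 0.13 and 0.38 ± 0.13 (limma adjusted p = 0.235 and 0.0656). In H2023 TFE3 was at 37.6 and 44.7 in wild type and 49.1 and 44.2 in the libraries labelled knockout in normal culture, and at 31.8 and 30.3 against 37.4 and 31.6 in Onco culture. TFE3 fell with Onco culture in both H2023 genotypes, by 0.39 and 0.43 (limma adjusted p = 0.0462 and 0.0275). Without mitochondrially encoded genes in the TPM these values were -0.16 and -0.21 (limma adjusted p = 0.449 and 0.247), and each call was lost without any but 1 of its 4 libraries (wild-type normal library 1, and knockout-labelled Onco library 1).

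In A549 in normal culture, 9 members rose and 1 fell in the libraries labelled knockout (Benjamini-Hochberg adjusted p under 0.05 over all genes, limma on log2(TPM + 1)). That is 23.8% of the 42, beside 17.7% of all 18227 genes called and 19.8% of the 14823 genes with a mean of at least 1 TPM. By direction, 21.4% of members rose beside 7.32% of all genes, and 2.38% fell beside 10.4%. The median log2 fold change was 0.33 for the members and -0.03 for all genes, and 36 of 42 members were above 0. Largest of all was NPC1 (chr18:23506184-23586898), the membrane protein that exports cholesterol from lysosomes. NPC1 was at 34.6 and 32.3 TPM in wild type and at 181 and 169 TPM in the libraries labelled knockout, a log2 fold change of 2.35 ± 0.32 (limma adjusted p = 0.000449). NPC2 (chr14:74476192-74494177), the soluble protein that hands cholesterol to NPC1, was at 73.5 and 81.2 TPM in wild type and at 367 and 197 in the libraries labelled knockout, a log2 fold change of 1.78 ± 0.34 (limma adjusted p = 0.00392). The 2 knockout-labelled libraries differ widely for NPC2, yet both lie above both wild-type libraries. Epithelial markers were lower in the same libraries, with a summed level of 2523 and 1450.1 TPM against 7417 and 7626 in wild type, KRT8 at 1259 and 765 against 3626 and 3569, and KRT18 at 1242 and 666 against 3749 and 3995. In Onco A549 the sums overlapped, at 4995 and 7195 against 5230.2 and 6570.3 TPM, as did KRT8 and KRT18. EPCAM was lower there, at 0.82 and 1.03 TPM in libraries labelled knockout against 9.4 and 7.94 in wild type. KRT19 was also lower, at 3.29 and 5.92 against 46.8 and 101 TPM, while CDH1 was higher, at 84.5 and 79.0 against 73.1 and 62.4.

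Of the 11 glycosidases, IDUA and GAA rose in A549 normal culture, GLA fell and 8 did not pass the test. IDUA (chr4:986997-1004506), which removes iduronic acid from heparan and dermatan sulfate, was at 6.86 and 11.3 TPM in wild type and at 27.2 and 25.0 in the libraries labelled knockout (1.46 ± 0.18, limma adjusted p = 0.000277). GAA, the acid glucosidase that degrades glycogen, was at 30.9 and 28.6 TPM against 62.7 and 58.8 (1.01 ± 0.14, limma adjusted p = 0.000501). Wild-type and knockout-labelled libraries did not overlap for either enzyme. Here and below, members described in this way had already passed the test, so lack of overlap is no separate support. The share of all genes without overlap is not given. CTSD was at 456 and 444 TPM in wild type and at 783 and 809 in the libraries labelled knockout (0.82 ± 0.19, limma adjusted p = 0.0112). SCARB2, the membrane receptor that carries glucocerebrosidase to lysosomes, was at 31.7 and 34.1 TPM against 56.9 and 60.4 (0.81 ± 0.17, limma adjusted p = 0.00685). LAMP2, a major lysosomal membrane glycoprotein, and the sulfatases ARSA and GALNS rose by 0.80, 0.72 and 0.70. GLA, which removes galactose from glycosphingolipids, was the member that fell, by 0.51, from 143 and 135 TPM to 86.3 and 109.7 TPM.

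By role, 2 of 5 sulfatases, 2 of 5 membrane proteins and 1 of 8 proteases rose in A549 normal culture, beside 7.32% of all genes. So did NPC1 and NPC2, 2 of the 4 lipid transfer and activator proteins, a role that here takes in GRN. NPC1 was counted in that role and not among the membrane proteins. Neither proton pump subunit and none of the 4 lipid hydrolases and phosphatases passed the test. NPC1, NPC2, IDUA and GAA kept their calls whichever of the 4 libraries was left out. The call of GALNS was lost without wild-type replicate 1 (0.58) and that of LAMP2 without knockout-labelled replicate 2 (0.74). SCARB2 lost its call without either of those 2 libraries (0.76 to 0.87), CTSD without any but knockout-labelled replicate 1 (0.80 to 0.85), GLA without any but knockout-labelled replicate 2 (-0.69 to -0.34) and ARSA without any of the 4 (0.71 to 0.74). GLA also lost its call when the mitochondrially encoded genes were taken out of the TPM or the fold changes were centred on their median. The authors' deposited table for this comparison called 19 members higher and 3 lower, beside 22.1% of 16460 genes with an adjusted p-value. It included all 10 named above, with NPC1 at a log2 fold change of 2.49.

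In Onco A549, 12 members rose and 1 fell in the libraries labelled knockout, 31.0% of the 42 beside 20.7% of all genes called. By direction, 28.6% of members rose beside 10.2% of all genes and 2.38% fell beside 10.5%. The median log2 fold change was 0.30 for members and 0.03 for all genes. NPC2 was at 96.3 and 84.0 TPM in wild type and at 304 and 352 in the libraries labelled knockout (1.85 ± 0.34, limma adjusted p = 0.00206). NPC1 was at 27.1 and 36.8 TPM against 78.8 and 101 (1.47 ± 0.32, limma adjusted p = 0.00616). Both cholesterol transport genes were thus above wild type in both A549 cultures without overlap.

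Of the 8 proteases, 3 cathepsins rose in Onco A549. The other 5 did not pass the test, with log2 fold changes of 0.90 for CTSB, 0.21 for CTSA, 0.20 for TPP1, 0.01 for CTSZ and -0.28 for CTSL. The authors' deposited tables did call CTSB higher in both A549 cultures, by 0.82 in normal and 0.84 in Onco culture. CTSH (chr15:78921058-78949574), an aminopeptidase, was at 14.6 and 16.1 TPM in wild type and at 38.8 and 49.4 in the libraries labelled knockout (1.45 ± 0.28, limma adjusted p = 0.00319). CTSD (chr11:1752752-1764573) was at 1237 and 994 TPM against 2754 and 2635 (1.28 ± 0.19, limma adjusted p = 0.000497). CTSC (chr11:88293592-88337787), the dipeptidyl peptidase that activates granule serine proteases, was at 318 and 245 TPM against 694 and 629 (1.24 ± 0.15, limma adjusted p = 0.000151). CTSH, CTSD and CTSC were higher in both knockout-labelled libraries than in either wild-type library. PSAP was at 759 and 666 TPM in wild type and at 1413 and 1450.1 in the libraries labelled knockout (1.01 ± 0.23, limma adjusted p = 0.00764). IDS, LAMP2, the acid lipase LIPA, the mannosidase MAN2B1, GLA and GALNS rose by 1.00, 0.83, 0.76, 0.69, 0.59 and 0.42. GUSB, the glucuronidase, fell by 0.48, from 59.8 and 54.8 TPM to 40.7 and 41.0.

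Calls of NPC2, CTSH, CTSD, CTSC, LAMP2, LIPA, MAN2B1 and GUSB in Onco A549 held whichever of the 4 libraries was left out. The calls of IDS and PSAP were lost without wild-type replicate 2 (0.91 in the lowest case for either gene). NPC1 lost its call without wild-type replicate 1 or knockout-labelled replicate 2 (1.26 to 1.68), GLA without any but knockout-labelled replicate 1 (0.35 to 0.84) and GALNS without any of the 4 (0.36 to 0.47). The authors' deposited table called 11 members higher and 1 lower here, beside 20.7% of 17520 genes (9.29% higher, 11.4% lower). It included CTSB (0.84) and lacked GLA (0.52) and GALNS (0.40). CD14, a monocyte marker, was at 26.8 to 47.6 TPM in Onco A549, at 6.61 to 13.1 in normal A549 and at 0.35 to 2.05 in H2023. Its part in the result was not tested. The other 5 macrophage and leukocyte markers were not among the genes tested.

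Across both A549 cultures, 5 members rose each time: CTSD, LAMP2, NPC1, NPC2 and GALNS. Among all genes, 3.06% rose in both. The authors' deposited tables called these 5 members higher too, except GALNS in Onco culture (0.40). They also called MAN2B1 (0.57 in normal and 0.65 in Onco culture) and CTSB (0.82 and 0.84) higher in both. Several members share exons with a gene on the other strand, and the strand setting of the counting is not given in the sources used here. RMC1, which overlaps NPC1, was at 11.99 and 14.3 TPM in A549 normal libraries labelled knockout against 12.2 and 13.99 in wild type, with a log2 fold change of 0.00 in normal and -0.05 in Onco culture. ISCA2, which overlaps NPC2, changed by 0.18 and 0.64 (limma adjusted p = 0.645 and 0.0759). SLC26A1, which overlaps IDUA, was at 3.7 and 4.11 TPM in the A549 normal libraries labelled knockout against 3.92 and 6.11 (-0.27, limma adjusted p = 0.355). TRAPPC2L, which overlaps GALNS, changed by -0.23 and 0.37. IFIT2, which overlaps LIPA, fell by 2.32 in Onco A549, where LIPA rose.

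**Figure D2:**
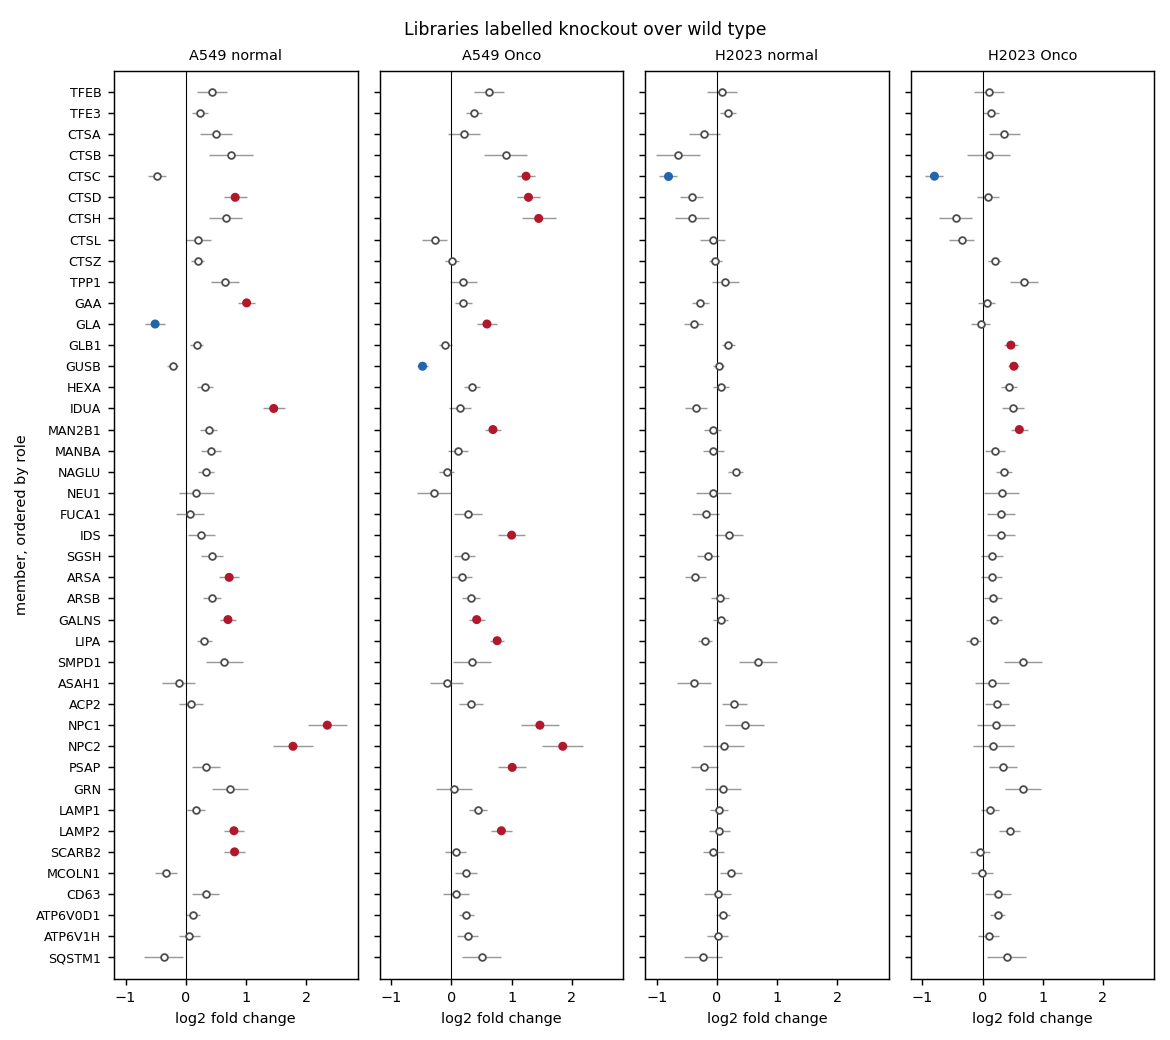
Log2 fold change of libraries labelled knockout over wild type for each of the 42 members (rows) in the 4 comparisons (panels); points are the fitted values, bars 1 standard error, and filled points passed the test (red higher, blue lower). Filled points number 10 and 13 in the A549 panels against 1 and 4 in the H2023 panels. Of all genes, 17.7% and 20.7% passed the test in A549 and 3.00% and 5.56% in H2023.

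In H2023 few members changed. In normal culture 1 of the 42 (2.38%) passed the test, beside 3.00% of all genes (1.03% higher, 1.97% lower), and the median of the members was -0.01. That member was CTSC, which was at 222 and 256 TPM in wild type and at 125 and 144 in the libraries labelled knockout, a log2 fold change of -0.82 ± 0.15 (limma adjusted p = 0.0148). In Onco H2023, 3 members rose and 1 fell, 9.52% beside 5.56% of all genes (3.17% higher, 2.40% lower). CTSC fell again, from 272 and 226 TPM to 143 and 139.8, by 0.80 (limma adjusted p = 0.013). The 3 that rose were all glycosidases. MAN2B1 was at 24.3 and 28.0 TPM against 38.5 and 42.4 (0.61 ± 0.14, limma adjusted p = 0.0243), GUSB at 32.1 and 28.9 against 44.5 and 43.7 (0.52 ± 0.092, limma adjusted p = 0.00868), and GLB1, the galactosidase, at 61.6 and 59.2 against 81.9 and 86.5 (0.47 ± 0.11, limma adjusted p = 0.0279). The wild-type and knockout-labelled libraries did not overlap for any of these 4 called members, which adds nothing to the test. NPC1 was at 256 and 241 TPM in wild-type H2023 in normal culture, above every A549 library, and at 383 and 306 in the libraries labelled knockout (0.46 ± 0.32, limma adjusted p = 0.505).

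None of the H2023 calls held under every left-out library. In normal culture CTSC lost its call without any but wild-type replicate 1 (-0.93 to -0.72). In Onco culture GUSB lost its call without wild-type replicate 2 (0.45 in the lowest case), CTSC and MAN2B1 without any but wild-type replicate 2 (-0.94 to -0.67 and 0.51 to 0.71), and GLB1 without any of the 4 (0.43 to 0.51). With the 4 libraries of each H2023 culture fitted alone, no member and no gene passed. The authors' deposited tables called CTSC lower in both H2023 cultures, at -0.79 and -0.92. In normal culture they also called CTSD and GLA lower (-0.41 and -0.40) and SMPD1 and NPC1 higher (0.63 and 0.44), beside 10.8% of 15400 genes (3.84% higher, 6.97% lower), and in Onco culture no further member, beside 5.07% of 16106 genes.

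**Figure D3:**
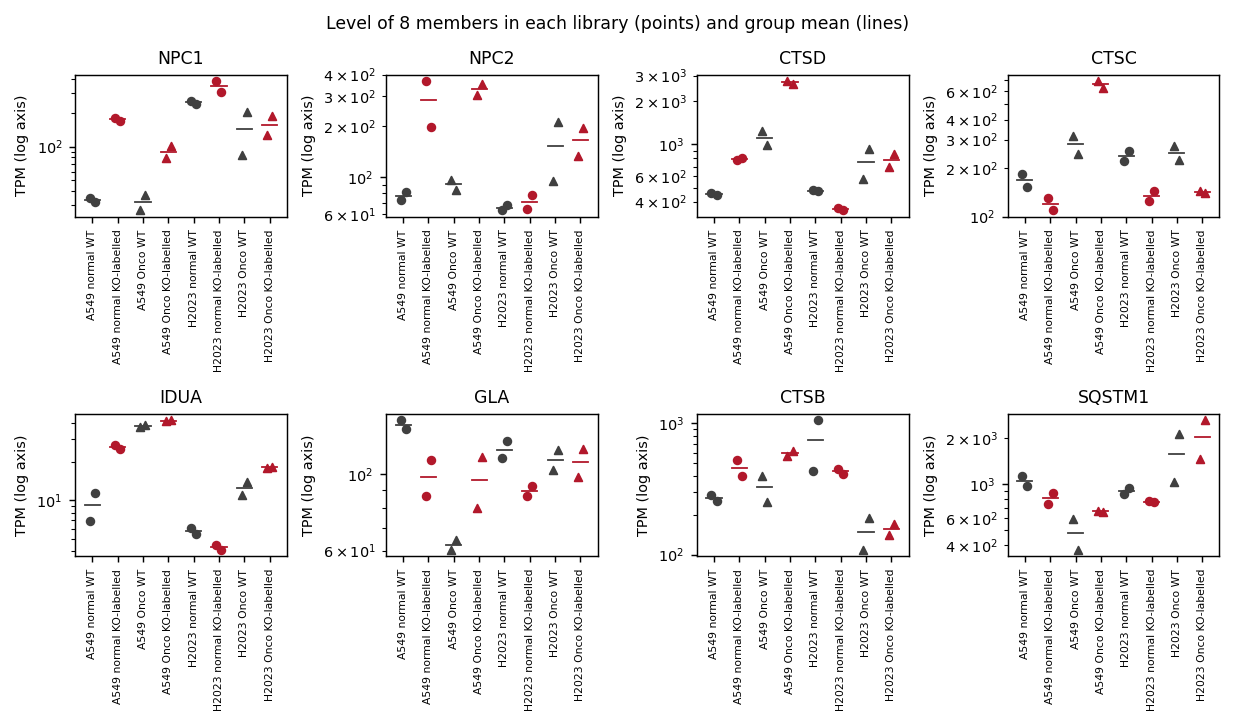
TPM on a log axis for 8 members in the 8 groups; points are single libraries (circles normal, triangles Onco culture; dark wild type, red labelled knockout) and lines are group means. NPC1 is lowest in the 4 wild-type A549 libraries (27.1 to 36.8 TPM), and CTSD and CTSC are highest in the Onco A549 libraries labelled knockout.

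Whether the change in libraries labelled knockout differed between cultures or lines was tested directly. Between the A549 cultures 2 members had a higher and 2 a lower change in Onco culture. That is 9.52% of members, near the 9.71% of all genes (5.61% higher, 4.10% lower). CTSC had the largest difference: it was -0.48 in normal culture (131 and 109 TPM in libraries labelled knockout, 183 and 152 in wild type, limma adjusted p = 0.0513) and 1.24 in Onco culture, a difference of 1.72 ± 0.22 (limma adjusted p = 0.00109). GLA passed the test in opposite directions in the 2 cultures, a difference of 1.11 ± 0.23 (limma adjusted p = 0.0131). Over left-out libraries its single changes ran from -0.69 to -0.34 in normal and from 0.35 to 0.84 in Onco culture. The authors' deposited table did not call GLA in Onco A549 (0.52). IDUA and GAA, which rose in normal culture, were at 36.9 and 38.6 against 41.3 and 41.99 TPM and at 92.0 and 73.2 against 100.4 and 89.3 TPM in Onco culture, so their differences were -1.32 ± 0.26 and -0.80 ± 0.20 (limma adjusted p = 0.00992 and 0.0256). In H2023 no member differed between cultures, and 1 gene in all did (0.00549%). At an unadjusted limma p under 0.05, 3 members and 1270 genes (6.97%) differed there. The deposited fold changes and their errors gave 71 genes and no member.

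Between the lines in normal culture, 8 members had a lower value in H2023 than in A549 and none a higher one. That is 19.0% of members, beside 12.1% of all genes called and 5.46% called lower. The largest were NPC1 (-1.89 ± 0.45, limma adjusted p = 0.0189), IDUA (-1.81 ± 0.26, limma adjusted p = 0.00129), NPC2 (-1.67 ± 0.48, limma adjusted p = 0.0402) and GAA (-1.29 ± 0.20, limma adjusted p = 0.00187). CTSD, ARSA, SCARB2 and GALNS were the others. In Onco culture 7 members differed between lines, 16.7% of members and near the 16.3% of all genes called. By direction, 4.76% of members were higher and 11.9% lower, beside 9.37% and 6.90% of all genes. CTSC (-2.04 ± 0.22, limma adjusted p = 0.000115), CTSH (-1.90 ± 0.40, limma adjusted p = 0.00698), NPC2 (-1.66 ± 0.48, limma adjusted p = 0.0329), CTSD (-1.19 ± 0.27, limma adjusted p = 0.0102) and LIPA were lower in H2023, and GUSB and GLB1 were higher. These comparisons use the same libraries as the single ones above. NPC1 and NPC2 in normal culture lost the call of the difference without 5 and 7 of the 8 libraries (values from -2.05 to -1.73 and from -2.12 to -1.22), whereas IDUA, GAA and CTSD in normal culture, and CTSC, CTSH and CTSD in Onco culture, held throughout.

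More members passed the test for culture than for the knockout label. In wild-type A549, 23 members rose and 5 fell with Onco culture, 66.7% of members beside 41.5% of all genes. By direction, 54.8% of members rose beside 19.1% of genes, and 11.9% fell beside 22.4%. The median log2 difference was 0.47 for members and -0.01 for all genes. IDUA rose most, from 6.86 and 11.3 to 36.9 and 38.6 TPM (1.98 ± 0.18, limma adjusted p = 5.6e-06). SMPD1, the acid sphingomyelinase, rose from 7.62 and 5.74 to 32.8 and 15.3 TPM (1.62 ± 0.31, limma adjusted p = 0.00139). FUCA1, the fucosidase, rose from 8.29 and 6.59 to 25.0 and 20.3 TPM (1.49 ± 0.23, limma adjusted p = 0.000297). None of these groups overlapped. CTSL, a cysteine protease, rose from 209.7 and 203 to 698 and 452 TPM (1.44 ± 0.21, limma adjusted p = 0.000191), GAA from 30.9 and 28.6 to 92.0 and 73.2 (1.44 ± 0.14, limma adjusted p = 7.98e-06) and CTSD from 456 and 444 to 1237 and 994 (1.30 ± 0.19, limma adjusted p = 0.00018). In all, 9 of 11 glycosidases and 4 of 8 proteases rose. The members that fell were SQSTM1 (-1.16), GLA (-1.15), IDS (-0.81), the calcium channel MCOLN1 (-0.80) and LAMP1 (-0.44). LAMP1 lost its call with either other scaling and without any but the first Onco library (-0.61 to -0.27). The calls of SQSTM1 and IDS were lost without the first normal or the second Onco library (-1.49 to -0.83 and -1.11 to -0.51).

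In A549 labelled knockout, 21 members rose and 1 fell with Onco culture, 52.4% beside 22.4% of all genes, with 11.4% of all genes rising. CTSC rose from 131 and 109 to 694 and 629 TPM (2.46 ± 0.15, limma adjusted p = 2.13e-06), the largest culture difference of any member. CTSD rose from 783 and 809 to 2754 and 2635 TPM (1.76 ± 0.19, limma adjusted p = 5.32e-05). FUCA1 rose from 9.31 and 6.55 to 31.8 and 23.9 TPM (1.70 ± 0.23, limma adjusted p = 0.000275). The 2 cultures were far apart for each of these genes. PSAP rose from 539 and 478 to 1413 and 1450.1 TPM (1.49 ± 0.23, limma adjusted p = 0.000568). LIPA, which hydrolyses cholesteryl esters, rose from 47.5 and 49.4 to 128 and 145 TPM (1.47 ± 0.12, limma adjusted p = 1.19e-05). SMPD1 rose from 9.23 and 12.9 to 30.5 and 27.1 TPM (1.32 ± 0.31, limma adjusted p = 0.00984), a call that was lost without replicate 1 of either culture (1.10 to 1.54 over the left-out libraries). NPC1 was the member that fell, by 0.96 (limma adjusted p = 0.0483), and it lost its call without any of the 4 libraries (-1.14 to -0.79) and with either other scaling.

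In wild-type H2023, 7 members rose and 5 fell, 28.6% of members beside 27.4% of all genes, a share near that of genes in general. By direction, 16.7% of members rose beside 5.17% of genes, and 11.9% fell beside 22.2%. NEU1, the sialidase, rose from 24.7 and 24.5 to 69.9 and 129 TPM (1.91 ± 0.29, limma adjusted p = 0.000659). LIPA rose from 58.7 and 57.0 to 123 and 137 TPM (1.15 ± 0.12, limma adjusted p = 8.28e-05). NPC2 rose from 63.5 and 68.0 to 94.4 and 211 TPM (1.09 ± 0.34, limma adjusted p = 0.031), and FUCA1 from 8.64 and 9.03 to 15.8 and 21.6 TPM (0.99 ± 0.23, limma adjusted p = 0.00774). Both libraries of the Onco culture were above both normal ones in each case. IDUA rose from 6.04 and 5.5 to 11.04 and 13.8 TPM (0.98 ± 0.18, limma adjusted p = 0.00203). CTSB (chr8:11842524-11869448), cathepsin B, fell most, from 433 and 1057 to 109 and 190.2 TPM, by 2.22 (limma adjusted p = 0.00092). The second wild-type library in normal culture stood far above the first for CTSB, and both stood above the Onco ones.

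In H2023 labelled knockout, 19 members rose and 4 fell, 54.8% beside 32.5% of all genes, and 45.2% rose beside 9.76%. NEU1 rose from 25.2 and 21.9 to 90.3 and 155 TPM (2.29 ± 0.29, limma adjusted p = 0.000115). IDUA rose from 4.47 and 4.12 to 17.8 and 18.3 TPM (1.85 ± 0.18, limma adjusted p = 2.24e-05). FUCA1 rose from 8.53 and 6.78 to 19.5 and 27.6 TPM (1.49 ± 0.23, limma adjusted p = 0.000458). CTSB fell, from 447 and 415 to 140.4 and 171 TPM, by 1.47 (limma adjusted p = 0.00812). It was the member with the largest fall in either H2023 genotype. SQSTM1 rose from 779.7 and 761 to 1465 and 2611 TPM (1.34 ± 0.32, limma adjusted p = 0.00721), the direction opposite to its fall in wild-type A549. LIPA rose from 52.3 and 48.4 to 103 and 133 TPM (1.20 ± 0.12, limma adjusted p = 2.84e-05). GRN, the progranulin precursor, NPC2, CTSD, ASAH1 and CTSA rose by 1.17, 1.17, 1.13, 1.06 and 0.95, and NPC1, ARSB and TFE3 fell by 1.15, 0.72 and 0.43. The calls of CTSB and NPC1 were lost without library 1 of either culture (-1.61 to -1.33 and -1.43 to -0.87), and NPC1 was at -0.93 without mitochondrially encoded genes (limma adjusted p = 0.0503). GRN and ASAH1 lost theirs without library 2 of either culture (0.82 to 1.53 and 0.71 to 1.41), and NPC2 and CTSA without any library but Onco library 1 (0.89 to 1.44 and 0.68 to 1.22).

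**Figure D4:**
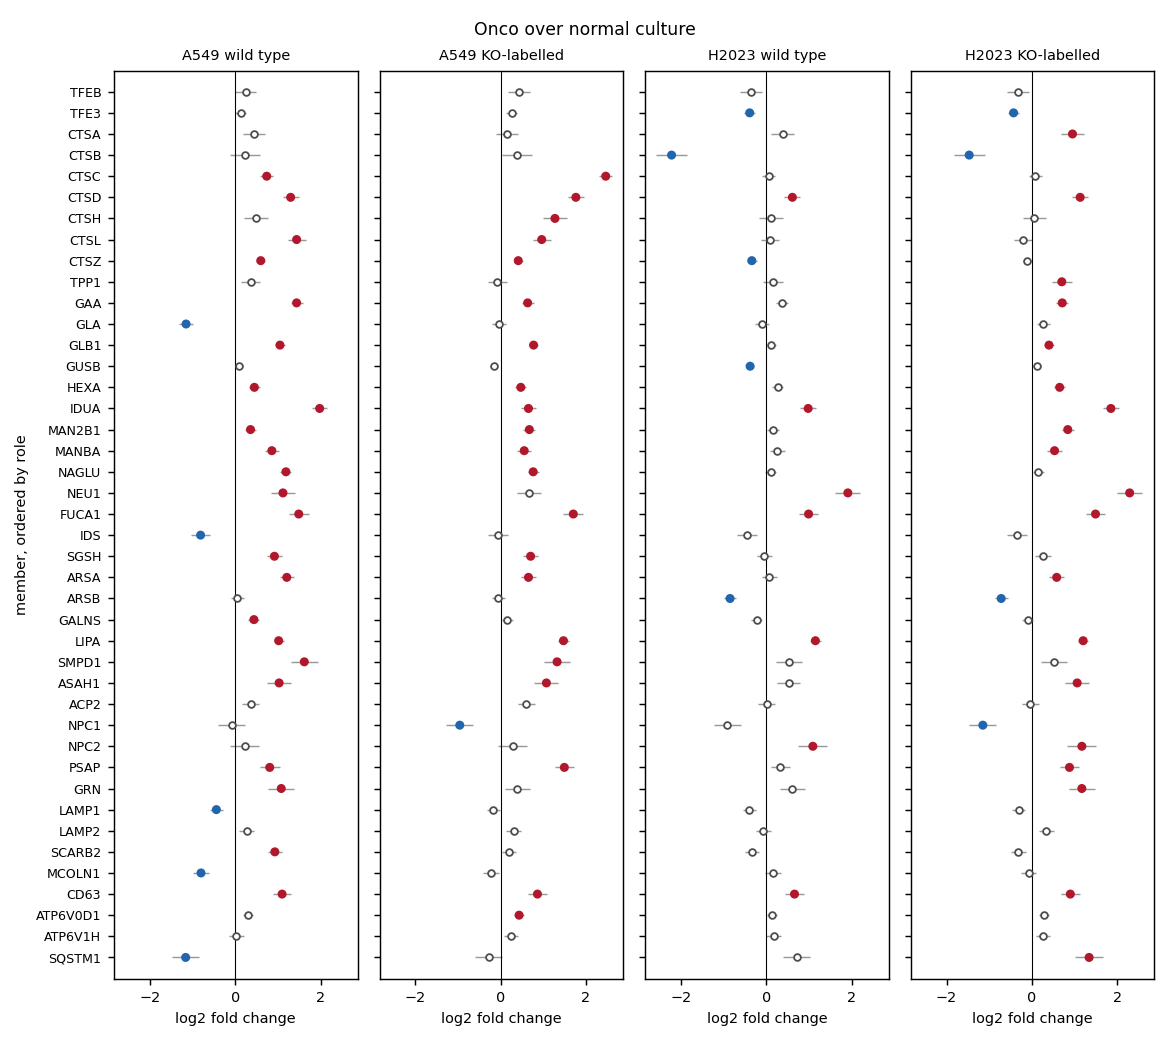
Log2 difference of Onco over normal culture for each of the 42 members (rows) in the 4 line and genotype pairs (panels); points are fitted values, bars 1 standard error, and filled points passed the test (red higher, blue lower). CTSD, LIPA, IDUA, CD63 and FUCA1 are red in all 4 panels, and CTSB is blue in both H2023 panels.

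CTSD, LIPA, IDUA, CD63 and FUCA1 rose with Onco culture in all 4 pairs, 5 of the 42 members beside 1.88% of all genes. LIPA kept its call in each pair whichever library was left out. IDUA lost its call in A549 labelled knockout without any 1 of the 4 libraries (0.60 to 0.71), and CD63 there without any but the second Onco library (0.77 to 0.94). In H2023 labelled knockout CD63 lost its call without normal library 1 or Onco library 2 (0.60 to 1.21). IFIT2, on the other strand from LIPA, was at 0.58 to 2.36 TPM in normal culture and at 3.7 to 65.9 in Onco culture. Its part in the LIPA result was not tested. The scaling of the libraries bears on the H2023 culture counts, because the median gene with at least 1 TPM was at -0.24 in wild type and -0.17 in the libraries labelled knockout. With mitochondrially encoded genes taken out of the TPM, those medians were -0.03 and 0.02. The members rising and falling were then 11 and 2 in wild-type H2023, and 23 and 2 in H2023 labelled knockout. CTSZ and GUSB, which fell in wild-type H2023 on the deposited scale by 0.34 and 0.38, were then at -0.10 and -0.15 (limma adjusted p = 0.612 and 0.305). Over all genes, the counts rising and falling in wild-type H2023 were 943 and 4043 on the deposited scale, 1516 and 1828 without mitochondrially encoded genes, and 1876 and 1733 with fold changes centred on their median. In H2023 labelled knockout they were 1779 and 4146, 2594 and 2414, and 2677 and 2620. In wild-type A549 they were 3479 and 4082 on the deposited scale and 4241 and 3251 without mitochondrially encoded genes, where 25 members rose and 4 fell.

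Most members differed in 1 direction between the replicates of Onco H2023. In wild type 34 of 42 members were higher in library 2 than in library 1 (median difference 0.35 on the log2 scale), where 46.9% of 14823 genes were. In libraries labelled knockout it was 32 of 42 (median 0.23), where 48.3% of genes were. Of the members, 29 (69.0%) were higher in library 2 of both genotypes, against 30.8% of genes. SQSTM1 was at 1033 and 2119 TPM in wild type and at 1465 and 2611 in the libraries labelled knockout. GRN was at 223 and 468 against 403 and 656, and NPC1 at 84.6 and 203 against 126 and 187. TFEB went the other way, at 7.34 and 4.55 and at 8.47 and 4.7 TPM. Without wild-type library 2, CTSD, CD63, NPC2 and FUCA1 lost their wild-type culture calls (0.26, 0.34, 0.52 and 0.78 as the lowest values over left-out libraries). CTSD, CD63 and NPC2 also lost them without either normal library. Without knockout-labelled library 2, SQSTM1 lost its culture call (0.93). In Onco wild-type A549 the direction was reversed, and only 6 of 42 members were higher in library 2 (median -0.25).

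**Figure D5:**
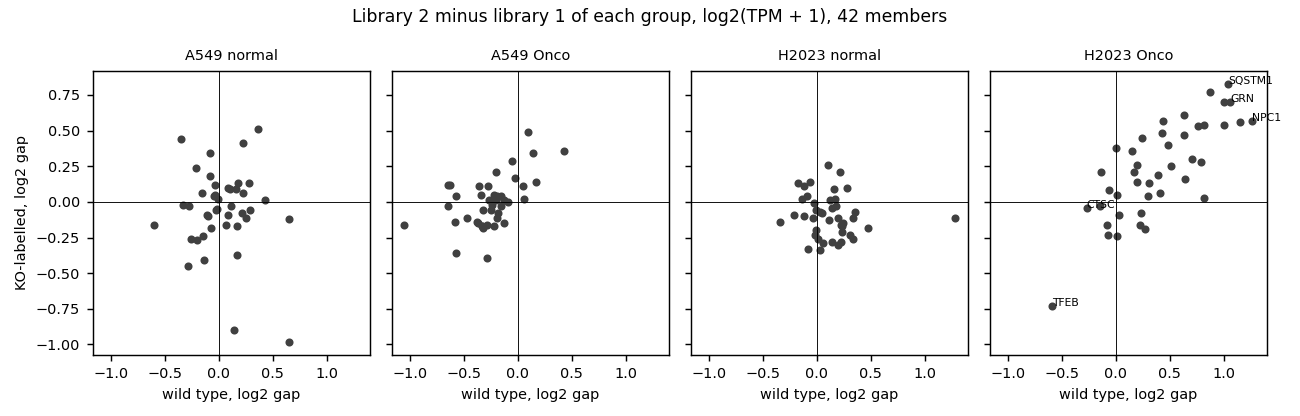
Library 2 minus library 1 in log2(TPM + 1) for each of the 42 members, with wild type on the horizontal and libraries labelled knockout on the vertical axis, for the 4 line and culture pairs (panels). In Onco H2023 most points lie to the upper right, 29 of 42 above 0 on both axes, while TFEB lies to the lower left.

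Wild-type H2023 and A549 also differed in lysosomal genes. In normal culture 18 members were higher in H2023 and 4 lower, 52.4% beside 41.5% of all genes (26.6% higher, 14.9% lower). NPC1 differed most (2.86 ± 0.32, limma adjusted p = 3.01e-05), followed by CTSH at 47.6 and 48.8 against 8.34 and 13.6 TPM (2.07 ± 0.28, limma adjusted p = 0.000126) and GAA at 84.3 and 98.2 against 30.9 and 28.6 (1.58 ± 0.14, limma adjusted p = 5.46e-06). With fold changes centred on their median the counts were 12 higher and 6 lower, and the median gene before centring was 0.16 higher in H2023. In Onco culture 12 were higher and 13 lower, 59.5% beside 47.8% of all genes (23.4% higher, 24.4% lower). NPC1, CTSH and SQSTM1 were again higher in H2023 (2.02, 1.69 and 1.65), and IDUA, ARSB and CTSZ lower (-1.54, -1.36 and -1.26). CTSB changed sides, 1.32 higher in H2023 in normal and 1.13 lower in Onco culture, although the change of sides was not tested. Its wild-type H2023 libraries in normal culture lay far apart, at 433 and 1057 TPM. Neither CTSB difference kept its call under every left-out library, with values from 0.68 to 1.96 in normal and from -1.53 to -0.74 in Onco culture.

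A further 92 genes of the lysosomal pathway, in 6 lists, were counted beside the members. Runs without single libraries are not reported for them. With the 4 libraries of each H2023 culture fitted alone no gene passed, so their H2023 calls rest on the fit over 16 libraries. In libraries labelled knockout 10 rose and 6 fell in A549 normal culture, 13 and 8 in Onco A549, 3 and 3 in H2023 normal culture and 7 and 1 in Onco H2023. The shares called in A549, 17.4% and 22.8%, were near the 17.7% and 20.7% of all genes, and those in H2023 were 6.52% and 8.70% beside 3.00% and 5.56%. Their medians were 0.06, 0.06, 0.01 and 0.17, beside medians of -0.03, 0.03, 0.01 and 0.06 over all genes. Over all genes, 7.32%, 10.2%, 1.03% and 3.17% rose in the 4 comparisons, in the same order, and 10.4%, 10.5%, 1.97% and 2.40% fell. Lists this short hold few calls at such shares, and no list was tested as a set. Among 20 further luminal enzymes and cofactors, 5 rose and none fell in A549 normal culture. CTSK, a collagen-degrading cathepsin, was at 0.8 and 1.1 TPM in wild type and at 3.9 and 5.2 in the libraries labelled knockout (1.5 ± 0.22, limma adjusted p = 0.000716), and the mannosidase MAN2B2 was at 7.96 and 6.26 against 13.6 and 12.8 (0.82 ± 0.17, limma adjusted p = 0.0059). In Onco A549, 4 rose and 1 fell, with CTSF lower (-0.61). In H2023 no enzyme of this list passed in normal culture, and 2 rose in Onco culture, with HGSNAT higher by 0.56.

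Of the 14 further proton pump subunits, ATP6V0A2 and ATP6V0B fell in A549 normal culture (-0.74 and -0.66) and ATP6V0E1 and ATP6V1G1 rose in Onco A549 (0.65 and 0.43). Beside them, 10.4% of all genes fell in A549 normal culture and 10.2% rose in Onco A549. ATP6V1F fell in both H2023 cultures, from 157 and 164 to 114 and 110.4 TPM in normal culture and from 167 and 187 to 124 and 122 in Onco culture (-0.51 and -0.52). Of the 13 further membrane proteins none rose in any of the 4 comparisons, beside 7.32%, 10.2%, 1.03% and 3.17% of all genes. TMEM192 and LAPTM4B fell in A549 normal culture (-0.60 and -0.54). CD68, a glycoprotein abundant in macrophage lysosomes, fell from 179 and 117 to 44.5 and 29.7 TPM in Onco A549 (-1.97 ± 0.42, limma adjusted p = 0.00549), and LAMP3 fell from 3.21 and 1.28 to 0.37 and 0.2 (-1.27). These fell in the same libraries in which NPC2, CTSD and LAMP2 rose.

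Among 10 enzyme sorting genes, SORT1, the sortilin receptor that takes some hydrolases to lysosomes, passed the test in all 4 comparisons, downward in A549 and upward in H2023. In A549 it went from 4.04 and 4.62 to 1.65 and 0.69 TPM in normal culture (-1.33 ± 0.24, limma adjusted p = 0.00291) and from 8.4 and 6.81 to 4.69 and 3.47 in Onco culture (-0.76 ± 0.24, limma adjusted p = 0.0405). In H2023 it went from 5.37 and 4.52 to 13.3 and 8.96 TPM (1.01 ± 0.24, limma adjusted p = 0.0438) and from 6.75 and 6.32 to 13.2 and 13.2 (0.91 ± 0.24, limma adjusted p = 0.0461). The difference between lines was 2.34 ± 0.34 in normal and 1.68 ± 0.34 in Onco culture (limma adjusted p = 0.00144 and 0.00552). SORT1 was singled out after its values were seen. Its H2023 calls lay close to the threshold and were not reached with the 4 libraries of each culture fitted alone. SUMF1, which activates sulfatases, rose in the Onco libraries labelled knockout of both lines (0.91 in A549, 0.63 in H2023). IGF2R, the larger mannose 6-phosphate receptor, rose by 0.78 in Onco A549, and GNPTAB, which makes the mannose 6-phosphate tag, by 0.55 in H2023 normal culture.

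Of the 16 further genes of the MiT/TFE family and mTORC1 machinery, TFEC fell from 2.29 and 2.0 to 0.02 and 0.13 TPM in Onco A549 (-1.55 ± 0.10, limma adjusted p = 9.49e-07), and MITF fell from 10.3 and 9.76 to 6.1 and 3.68 (-0.94 ± 0.24, limma adjusted p = 0.0143). Both are relatives of TFEB and TFE3. RRAGA, a Rag GTPase that recruits mTORC1 to lysosomes, rose in A549 normal culture (0.63) while the scaffold subunit LAMTOR1 fell (-0.32). RRAGB rose in both H2023 cultures, by 0.80 and 0.96, and LAMTOR2 fell in normal culture (-0.48). Of the 19 autophagy genes, 4 rose in A549 normal culture, beside 7.32% of all genes. They were led by WIPI1 (1.62 ± 0.35, limma adjusted p = 0.00855) and the kinase ULK1 (0.72). CALCOCO2, a cargo receptor like SQSTM1, fell from 145 and 113 to 53.2 and 44.6 TPM in Onco A549 (-1.38 ± 0.13, limma adjusted p = 2.46e-05), where VPS18 rose by 0.93. In H2023 the cargo receptor TAX1BP1 fell in normal culture (-0.53) and GABARAPL2 rose in Onco culture (0.39). With Onco culture, 32 of the 92 genes rose and 11 fell in wild-type A549, 18 and 2 in A549 labelled knockout, 9 and 5 in wild-type H2023, and 31 and 4 in H2023 labelled knockout. In that order 46.7%, 21.7%, 15.2% and 38.0% of the 92 were called, beside 41.5%, 22.4%, 27.4% and 32.5% of all genes. The shares that rose were 34.8%, 19.6%, 9.78% and 33.7%, beside 19.1%, 11.4%, 5.17% and 9.76%.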

How the data were processed

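RNA was sequenced from 16 libraries of A549 and H2023 cells, prepared with a stranded mRNA kit from 1 µg of total RNA per the labels' protocols. The submitters' processing notes name HISAT2, StringTie and GRCh38; annotation, strand setting and filters are not given in the sources used here. The authors deposited 4 tables, 1 per line and culture, each with 4 libraries and 18361 rows. TPM per library was made by the authors, and this unit was taken from the values. Per the file headers the tables also hold a mean normalized count (a signal), a log2 fold change with its error, a test statistic (a score), and a p-value with its adjusted p-value, all made by the authors. Of 119 identifiers found in several rows, all with identical values, the first row was kept, leaving 18227 genes. The tables gave symbols for 15590 genes, and Ensembl names gave 2575 more.

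From the deposited TPM, log2(TPM + 1) was fitted with limma 3.58.1 (R 4.3.3, mean-variance trend, no filter on low values) as 8 group means over all 16 libraries, with 8 residual degrees of freedom. The spread is thus shared by all groups, since 4 libraries alone leave few degrees of freedom. Two-sided p-values were adjusted over all genes by the Benjamini-Hochberg method, with a threshold of 0.05. Fold changes on this scale understate the change of low genes. TPM keeps no depth, so the depth of single libraries is unknown. Summed over genes, the deposited mean normalized count was 20540195 for A549 normal, 20453740 for A549 Onco, 22656596 for H2023 normal and 22760512 for H2023 Onco culture. The tables were normalized separately by the authors, and comparisons between lines and cultures set TPM side by side across them. The members, lists, rule for named genes and tests were chosen with earlier results of these data known. Per-library values are given for TFEB, TFE3 and the targeted gene, for up to 6 called members with the largest change in each knockout and culture comparison, up to 4 in each difference, and up to 2 genes a further list and knockout comparison. The fit was tested on simulated data with known changes and noise drawn independently for each library. Those data held no shift shared by libraries, so the run does not cover the one seen in Onco H2023. Alternatives were another pseudocount, a filter on low values, other scalings, fits over 4 or 8 libraries, the authors' tables, a replicate block, leaving out each library, and, added after seeing the data, leaving out the 4 Onco H2023 libraries. Exon overlaps came from GENCODE gene models on GRCh38. The values of some genes of the wider lists are not reported here.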

Additional observations from a re-analysis of the deposited data

Results flagged for a closer look

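The change in libraries labelled knockout differed between the A549 cultures for 4 members by the limma test of the difference itself (Onco minus normal). The share of members called, 9.52%, was near the 9.71% of all genes. The difference was 1.72 for CTSC, 1.11 for GLA, -0.80 for GAA and -1.32 for IDUA on the log2 scale. CTSC and IDUA held whichever library was left out, GLA lost its call without replicate 1 of either genotype in normal culture (0.86 to 1.36 over left-out libraries), and GAA without 6 of 8 libraries (-0.97 to -0.64).

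Between the lines in normal culture (H2023 minus A549), the differences that passed were -1.89 for NPC1, -1.81 for IDUA, -1.67 for NPC2, -1.29 for GAA, -1.25 for CTSD, -1.08 for ARSA, -0.87 for SCARB2 and -0.64 for GALNS. ARSA lost its call without replicate 2 of either H2023 genotype, GALNS without 6 of 8 libraries, and SCARB2 without any of the 8 (-0.99 to -0.75).

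In Onco culture the differences between lines were -2.04 for CTSC, -1.90 for CTSH, -1.66 for NPC2 and -1.19 for CTSD. They were -0.91 for LIPA, 0.57 for GLB1 and 1.00 for GUSB. The share of members called, 16.7%, was near the 16.3% of all genes. NPC2 lost its call without 6 of 8 libraries (-2.24 to -1.09) and GLB1 without 4 of 8 (0.50 to 0.64). GUSB, which fell in A549 and rose in H2023, held throughout.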

How the results depend on the processing

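The direction of all 179 called member results was the same under each alternative run. With a pseudocount of 0.1 or only genes with a mean of at least 1 TPM, all 179 kept their side of the threshold. Calls were lost by 12 without mitochondrially encoded genes, 15 with centred fold changes and 4 with the replicate block. Where an alternative covered fewer results, they were lost by 21 of 117 over 8 libraries, 8 of 28 over 4 libraries, 5 of 28 in the authors' tables, 1 of 19 in the differences of their fold changes and 2 of 108 without the 4 Onco H2023 libraries. Of the 179, 90 held under every left-out library, where the lone library of a group is assumed to vary like the others.

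Members called in libraries labelled knockout numbered 22 in the authors' deposited table for A549 normal culture, where 22.1% of genes were called. In H2023 normal culture they numbered 0 over 4 or 8 libraries and 5 in the authors' table, where 10.8% of genes were called. In Onco H2023 they numbered 0 over 4 libraries, 2 over 8 and 1 in the authors' table, where 5.07% of genes were called. For culture, 8 libraries gave 7 in wild-type H2023 and 12 in H2023 labelled knockout. The difference between the A549 cultures gave 7 without the 4 Onco H2023 libraries and 9 from the deposited fold changes, which gave 15 for the difference between lines in normal culture. Over all genes that difference between lines gave 2783 from the deposited fold changes, against 2199 in the fit over 16 libraries. The cause was not tested.

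Leaving out 1 library at a time gave 5 to 8 members for the knockout label in A549 normal culture, 9 to 12 in Onco A549, 0 to 1 in H2023 normal culture and 1 to 6 in Onco H2023. For culture it gave 18 to 26 in wild-type A549, 10 to 13 in A549 labelled knockout, 7 to 17 in wild-type H2023 and 11 to 19 in H2023 labelled knockout. The difference between cultures gave 2 to 5 in A549 and 0 in H2023. That between lines gave 3 to 6 in normal and 5 to 10 in Onco culture, and wild-type H2023 over A549 gave 11 to 17 and 20 to 24. The number of genes called in all moved in these runs too, so these counts do not describe the members alone. Over all genes the knockout label in H2023 gave 0 in either culture with 4 libraries, against 546 and 1014 over 16 libraries.

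Alternatives were also computed for the uncalled changes of TFEB and TFE3, some of which turned direction. Other uncalled members were set only against the authors' deposited tables, where small values can turn as well (CTSD for the knockout label in Onco H2023, 0.09 and -0.07). TFEB was -0.07 in both H2023 cultures in the authors' deposited tables. Over the left-out libraries it ran from -0.06 to 0.22 in normal H2023 and from -0.26 to 0.48 in Onco H2023 (-0.18 without wild-type replicate 2). TFEB for culture in H2023 labelled knockout ran from -0.69 to 0.04, and TFE3 for culture in wild-type A549 from -0.04 to 0.30.

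Deviations of same-numbered wild-type and knockout-labelled libraries correlated at 0.075, 0.131, 0.027 and 0.461 (A549 normal and Onco, then H2023), and those of the cultures of a line and genotype at 0.096 to 0.162. The labels tie no number to a shared batch and a correlation above 0.1 was not reached in every pair, so the numbers were not taken as pairs, though same-numbered Onco H2023 libraries deviated together. With the replicate number as a block, members called numbered 14, 14, 1 and 6 for the knockout label and 31, 25, 17 and 24 for culture (wild type then knockout-labelled, A549 then H2023). Genes called in all for culture went up too, to 8145, 4631, 5559 and 6511 from 7561, 4085, 4986 and 5925. The blocked differences gave 8 between A549 cultures, 0 between H2023 cultures, 10 and 12 between lines, and wild-type H2023 over A549 gave 25 and 27. TPM holds no depth, so no limit for low genes can be set.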
